A study of Mus musculus with 9 samples.

Results

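Genes of the ubiquitin and SUMO conjugation pathways were examined in mouse amygdala after chronic social defeat, in the RNA that precipitates with Argonaute 2 (Ago2), the partner protein of microRNAs. Members were chosen by gene symbol, from the families Usp, Ube2, Ube3, Fbxo, Fbxl, Fbxw, Trim, Rnf, Cul, Sumo, Senp and Psm, and 164 of the 9803 gene symbols of the deposited table matched. They comprised 24 ubiquitin-specific proteases, 18 E2 conjugating enzymes, 2 UBE3 ligases, 37 F-box proteins, 19 TRIM proteins, 41 RNF proteins, 6 cullins, 2 SUMO proteins, 2 SENP proteases, 4 genes of the 20S proteasome core and 9 matched to the 19S cap. The match was to letters of a symbol, so that Usp6nl, which encodes a GTPase-activating protein, was counted with the proteases, and Psmc3ip, which encodes a recombination factor, with the 19S cap.

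All mice were C57BL/6J males, given as 10 weeks old in the description of the defeat protocol, a stress in which a mouse is exposed repeatedly to an aggressor. The control group (arrays 1, 2 and 4) was not defeated, and the defeated mice were divided by the titles into susceptible (arrays 1 to 3) and resilient (arrays 1 to 3) groups, by a criterion that the sources used here do not give. The tissue was collected 8 days after the last defeat, and 100 ng of RNA from each Ago2 precipitate was labelled for 1 Affymetrix array. Whether the arrays are separate animals is not stated in the labels, and the p-values therefore reflect only how these samples vary, which could be technical variation. Input RNA and a control precipitate were not analysed here, so transcript amount, Ago2 occupancy and carry-over in the precipitate cannot be told apart. In bulk tissue, fewer cells of a type and less RNA per cell cannot be told apart either.

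Ubiquitin is attached to proteins by a relay of an activating enzyme (E1), a conjugating enzyme (E2) and a ligase (E3), which selects the substrate, and deubiquitinases such as the ubiquitin-specific proteases take it off again. Cullins are scaffolds that hold a RING subunit and a substrate receptor, such as an F-box protein on Cul1 or Fbxw8 on Cul7, whereas RNF and TRIM proteins carry a RING domain of their own and UBE3 ligases a HECT domain. SUMO, a ubiquitin-like protein, is attached by a relay of its own and removed by SENP proteases, and proteins with ubiquitin chains are unfolded by the 19S cap and cleaved in the 20S core. In neurons these pathways are known for their part in dendrite growth, synaptic protein turnover and receptor trafficking.

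Values are log2 signals after RMA, an array method that corrects background, equalises the distributions of the arrays and summarises the probes of a transcript, so that differences are log2 ratios. A gene was taken as above background when its mean over the 9 arrays exceeded 6.12, the 95th percentile of 587 olfactory and vomeronasal receptor genes. By that measure 133 of the 164 members (81.1%) were above background, against 58.5% of all genes, and the 31 others included 10 F-box and 11 TRIM genes. Differences were fitted with limma over all genes and 9 arrays, and a gene is called changed where its p, adjusted by Benjamini-Hochberg over 9803 genes, was below 0.05.

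Across the series, array medians lay between 7.11 and 7.19, and the table held only genes whose one-way p over the groups was at most 0.287. An allowance for that selection, which divides each p by this bound, left 0 members called in any comparison, with 0.0102% of all genes called for susceptible against control and 0.00% in the others. Markers of several other cell types moved with the groups. All 23 choroid plexus and ependymal markers in the table (of 25 listed) were higher after defeat, with a median difference of 0.32, and their mean per array was 8.50 to 8.97 in controls, 9.02 to 9.43 in susceptible and 8.54 to 9.05 in resilient arrays. Each of the 6 oligodendrocyte markers in the table (of 24 listed) was lower after defeat (median -0.25), and so were all 8 microglial markers (of 22 listed, median -0.14). Astrocyte markers were mixed, with 3 higher and 3 lower (6 of 15 listed). Endothelial and pericyte markers were mixed too, with 3 higher and 5 lower (8 of 15 listed). All 9 striatal-type and cholinergic markers in the table (of 20 listed) were lower in susceptible than in control arrays (median -0.48). By contrast, 6 were higher and 3 lower in resilient than in control arrays (median 0.09). Their mean was 9.29 on resilient array 1 and 7.82 to 8.70 on the other arrays. Pan-neuronal markers, of which 7 of 17 were in the table, averaged 11.56 to 11.61 on every array. The part of this cell content in the results below was not tested. A fit with the choroid plexus mean as a covariate called 0 members in every comparison. As that mean did not overlap between control and susceptible arrays, this fit cannot tell cell content from group.

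In defeated against control arrays 2 of the 164 members were called, 1 higher and 1 lower, where 1.29% of all genes were called (1.01% higher and 0.275% lower). Cul7, a cullin scaffold known in neurons for a ligase at the Golgi that governs dendrite growth, rose by 0.28, and Fbxo4, an F-box protein known for the turnover of cyclin D1, fell by 0.22 at a signal below background. In susceptible against control arrays 4 members were called, 2 in each direction, against 2.40% of all genes (1.85% higher and 0.551% lower). Cul7 and Fbxw4 were the members that rose there, and Fbxo4 and Trim13 were those that fell. No member was called in resilient against control or in susceptible against resilient arrays, in which 0.00% of all genes were called. At an unadjusted p below 0.05 the resilient comparison held 31 members (23 higher and 8 lower) and the comparison of susceptible with resilient 15 (8 higher and 7 lower). Those were 18.9% and 9.15% of the members. Over all genes the shares were 21.2% (13.6% higher and 7.60% lower) and 11.8% (6.61% higher and 5.20% lower). The comparisons with control share the 3 control arrays, so their values are given side by side and are not independent.

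The counts depended on single arrays. In defeated against control arrays 0 members were called without any one of 7 arrays, whereas 16 were called without susceptible array 1 and 11 without resilient array 1. In susceptible against control arrays the corresponding counts were 24 without susceptible array 1, 7 without resilient array 1, 1 without resilient array 3 and 0 without each other array. The shares of all genes called in the same fits are not given here. These counts therefore show only how far the calls hang on single arrays, and are not a result about the members.

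Sequence around the transcription start is shown for the called genes that have an entry in RefSeq (GRCm38.p6), from 250 bases before to 50 after the start, because these genes carry the calls and moved in opposite directions. The Cul7 window is chr17:46650088-46650387 (plus strand), the Fbxo4 window chr15:3979524-3979823 (minus strand) and the Trim13 window, the first of 2 entries, chr14:61597976-61598275 (plus strand). Capitals mark matches to any of 7 motifs on either strand.
Cul7: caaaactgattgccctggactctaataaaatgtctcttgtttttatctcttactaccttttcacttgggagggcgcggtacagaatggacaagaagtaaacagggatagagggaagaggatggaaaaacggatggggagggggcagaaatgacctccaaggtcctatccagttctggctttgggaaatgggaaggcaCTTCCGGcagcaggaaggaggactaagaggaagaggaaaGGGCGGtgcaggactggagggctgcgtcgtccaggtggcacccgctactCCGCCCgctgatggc
Fbxo4: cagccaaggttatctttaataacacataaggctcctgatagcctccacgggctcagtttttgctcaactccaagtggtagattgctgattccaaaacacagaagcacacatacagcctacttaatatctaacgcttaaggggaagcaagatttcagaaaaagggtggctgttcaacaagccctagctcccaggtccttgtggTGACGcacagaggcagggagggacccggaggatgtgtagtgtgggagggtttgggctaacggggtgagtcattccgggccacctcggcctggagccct
Trim13: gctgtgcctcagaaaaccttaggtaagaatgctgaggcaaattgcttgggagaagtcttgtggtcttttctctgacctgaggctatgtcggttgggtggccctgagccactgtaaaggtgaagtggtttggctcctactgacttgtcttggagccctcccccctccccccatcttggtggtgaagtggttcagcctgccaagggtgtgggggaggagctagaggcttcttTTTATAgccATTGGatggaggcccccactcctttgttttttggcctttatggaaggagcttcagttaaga

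The Cul7 sequence holds the SP1 box GGGCGG at 2 places, once on each strand, and 1 ETS site CCGGAAG on the opposite strand. In the Fbxo4 sequence the match is the cAMP response half-site TGACG, and in the Trim13 sequence they are a TATA box (TATAAA) and a CCAAT box, both on the opposite strand. The others searched were the E-box CACGTG and the glucocorticoid receptor palindrome, and no matches overlapped in the sequences shown. Of the members, 125 had entries, 165 in all. The SP1 box lay in 60.0% of these and in 35.7% of all 32851 promoters, the ETS site in 22.4% and 8.86%, and the cAMP half-site in 31.5% and 20.8%. The CCAAT box lay in 30.9% and 37.4%, the TATA box in 9.09% and 13.6%, and the E-box in 6.67% and 7.15%. The palindrome lay in 0 of the 165 member promoters and in 0.475% of all. The member promoters also had a median GC content of 60.0% and 20 CpG dinucleotides, against 52.7% and 7 for all promoters. A match describes letters in this window and does not show a bound site, and arrays of precipitated RNA do not measure promoters.

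Among the cullins, Cul7 read 8.48, 8.24 and 8.34 in control arrays 1, 2 and 4, 8.70, 8.73 and 8.70 in susceptible arrays 1 to 3, and 8.47, 8.57 and 8.65 in resilient arrays 1 to 3. Every susceptible array was above every control and every resilient array, while resilient array 1 lay just under the highest control. The difference was 0.28 (SE 0.056, limma adjusted p = 0.049, 1.22-fold) for defeated against control and 0.36 (SE 0.065, adjusted p = 0.040, 1.28-fold) for susceptible against control. It was 0.21 (adjusted p = 0.193) for resilient against control and 0.14 (adjusted p = 0.411) for susceptible against resilient. With the allowance for the selected table, the adjusted p for susceptible against control was 0.138.

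Fbxw8, the substrate receptor of the Cul7 ligase, read 9.35, 9.37 and 9.42 in controls, 9.48, 9.57 and 9.51 in susceptible and 9.31, 9.42 and 9.42 in resilient arrays. The susceptible arrays lay above all others, and control and resilient arrays covered much the same range. Its difference was 0.14 (SE 0.045, adjusted p = 0.081) for susceptible against control, 0.00 for resilient against control and 0.14 (limma adjusted p = 0.411) for susceptible against resilient. A further table entry for Fbxw8 went the other way, at -0.06 for defeated against control, but its mean signal of 5.47 was below the background level of 6.12.

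Cul9, a relative of Cul7 that binds p53, read 8.37, 8.26 and 8.26 in controls, 8.56, 8.53 and 8.46 in susceptible and 8.37, 8.46 and 8.60 in resilient arrays. Susceptible arrays were all above the controls, and resilient array 1 lay within the control range. The difference for defeated against control was 0.20 (SE 0.054), with a limma adjusted p of 0.071, so that Cul9 was not called. Cul2, the scaffold of the VHL ligase, was lower in all 6 defeated arrays (7.05 to 7.26) than in the controls (7.28 to 7.36), at -0.13 (adjusted p = 0.110). Cul3, which takes BTB-domain receptors, read 12.13, 12.14 and 12.09 in resilient arrays, above the controls (12.02 to 12.06) and the susceptible arrays (at most 12.05). Its difference for susceptible against resilient was -0.10 (limma adjusted p = 0.411), and resilient against control was 0.09 (adjusted p = 0.230). Cul4a, the DDB1-bound scaffold, differed by 0.14 for susceptible against control (adjusted p = 0.096), and Cul1, the scaffold for F-box proteins, by -0.04 (adjusted p = 0.335). The 6 cullins had a median difference of 0.06 for defeated against control, beside 0.04 over all genes.

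F-box proteins choose the substrates of Cul1 ligases, and 32 of the 37 were higher in defeated than in control arrays, with a median difference of 0.10. Over all 9803 genes 58.6% were higher and the median was 0.04. Among genes above background the figures were 26 of 27 F-box genes with a median of 0.12, beside 71.2% of all such genes with a median of 0.07. The mean of the 37 genes, relative to the control mean, was 0.062, 0.110 and 0.104 in susceptible arrays 1 to 3 and 0.025, 0.067 and 0.073 in resilient arrays 1 to 3. All 6 defeated arrays thus lay above the controls, which ran from -0.005 to 0.005, and resilient array 1 was the lowest of the 6. The same means over all genes were 0.022 to 0.039 in susceptible and 0.003 to 0.033 in resilient arrays. The F-box median was 0.06 with the choroid plexus mean as a covariate and 0.04 after quantile normalisation, when the median of all genes was 0.01.

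**Figure D1:**
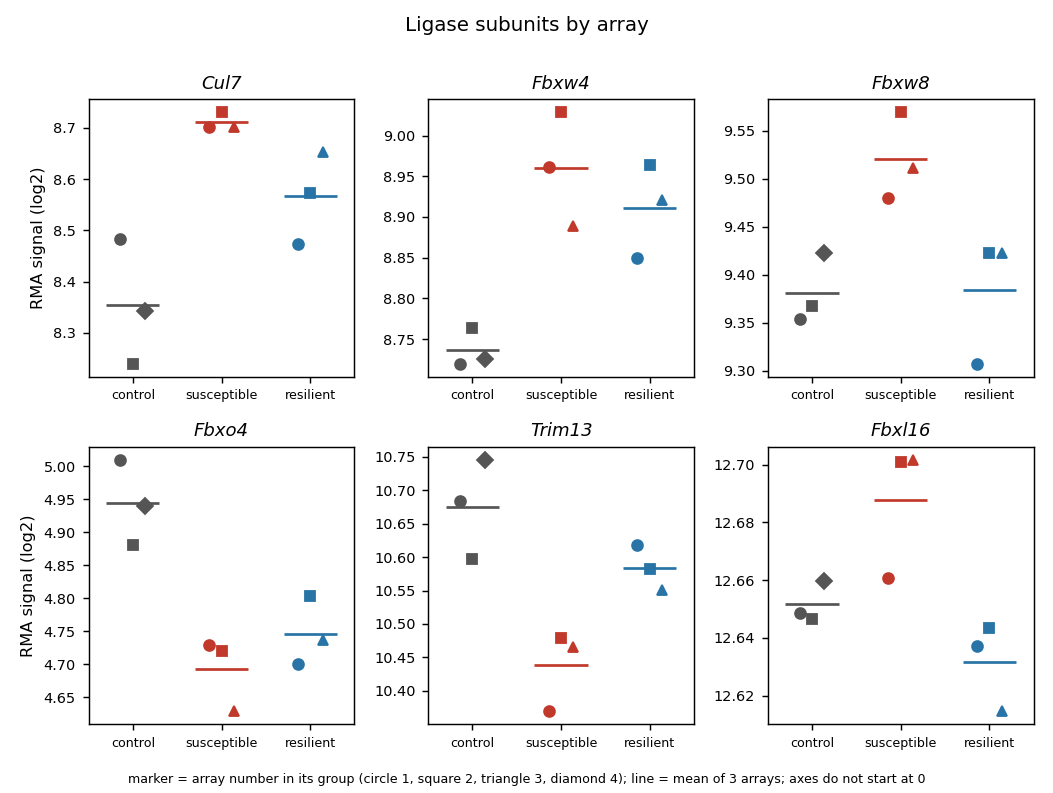
RMA signal (log2, vertical axes that do not start at 0) of 6 ligase genes in each of the 9 arrays, by group, with the marker shape giving the array number and a line at the mean of 3 arrays. Cul7 and Fbxw8 are highest in susceptible arrays, Fbxw4 is higher in all defeated arrays than in controls, Fbxo4 is lower in all defeated arrays, Trim13 is lowest in susceptible arrays, and Fbxl16 spans only 12.61 to 12.70.

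Fbxw4, an F-box protein known for a limb malformation locus in the mouse, read 8.72, 8.76 and 8.73 in controls, 8.96, 9.03 and 8.89 in susceptible and 8.85, 8.96 and 8.92 in resilient arrays. All 6 defeated arrays lay above the controls, and the 2 defeated groups overlapped. It was called for susceptible against control (0.22, SE 0.047, limma adjusted p = 0.046, 1.17-fold) and missed the threshold for defeated against control (0.20, SE 0.041, adjusted p = 0.052). Resilient against control was 0.18 (adjusted p = 0.181), and with the allowance the adjusted p for susceptible against control was 0.162.

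Fbxo4 read 5.01, 4.88 and 4.94 in controls, 4.73, 4.72 and 4.63 in susceptible and 4.70, 4.80 and 4.74 in resilient arrays. Every defeated array was below every control, but all 9 values lay below the background level of 6.12. The difference was -0.22 (SE 0.042, limma adjusted p = 0.045) for defeated against control, -0.25 (SE 0.048, adjusted p = 0.044) for susceptible and -0.20 (adjusted p = 0.179) for resilient against control. It was the single member called lower in defeated arrays.

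Fbxo10, which in human cells targets the survival protein BCL2, read 10.12, 9.93 and 9.90 in controls, 10.33, 10.21 and 10.14 in susceptible and 10.13, 10.30 and 10.26 in resilient arrays. Control array 1 stood close beneath the lowest defeated array, and the groups did not overlap. The difference of 0.24 (SE 0.063) had a limma adjusted p of 0.066. Fbxw7, the receptor for Notch, Myc and cyclin E, differed by 0.12 (adjusted p = 0.114), and Fbxo45, a synaptic F-box protein, by 0.12 (adjusted p = 0.128). Fbxo48 was the one F-box gene above background that was lower after defeat, at -0.06 (adjusted p = 0.287).

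Fbxo32, atrogin-1, known for protein loss in wasting muscle, was a gene whose 2 defeated groups did not overlap, which held for 15.0% of all genes. It read 7.63, 7.61 and 7.63 in controls, 7.49, 7.53 and 7.56 in susceptible and 7.98, 7.63 and 7.74 in resilient arrays. Susceptible arrays were below all others, and resilient array 1, the array with the highest striatal-type markers, stood above the rest. Susceptible against resilient was -0.26 (SE 0.076, limma adjusted p = 0.411), so a difference between the 2 defeated groups was not shown. Among F-box genes above background, the next most negative difference there was that of Fbxo9, at -0.08 (adjusted p = 0.534). The largest positive ones were those of Fbxo46, at 0.14 (adjusted p = 0.411), and of Fbxw8, given above.

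The 41 RNF genes had higher values in defeated arrays in 28 cases (median 0.07), and none was called. Over all genes 58.6% were higher (median 0.04), and 71.2% among genes above background (median 0.07). Rnf20, which with Rnf40 attaches ubiquitin to histone H2B, read 9.46, 9.48 and 9.56 in controls, 9.60, 9.70 and 9.78 in susceptible and 9.70, 9.77 and 9.82 in resilient arrays. All defeated arrays were above the controls. The difference was 0.23 (SE 0.047, limma adjusted p = 0.052), and its partner Rnf40 differed by 0.08 (adjusted p = 0.136). Rnf135, which ubiquitinates the RNA sensor RIG-I, differed by 0.20 (SE 0.071, adjusted p = 0.103), at a signal close to background.

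Rnf152, a lysosomal ligase, read 6.95, 6.77 and 6.71 in controls, 6.71, 6.43 and 6.36 in susceptible and 6.68, 6.71 and 6.74 in resilient arrays. Susceptible arrays 2 and 3 stood below the other 7, and susceptible array 1 was level with the lowest control. The difference was -0.31 (SE 0.090, limma adjusted p = 0.071) for susceptible against control and -0.21 (adjusted p = 0.411) for susceptible against resilient. Rnf5, a ligase of the endoplasmic reticulum, differed by -0.13 (SE 0.051, adjusted p = 0.113) for defeated against control. Rnf2, the polycomb ligase for histone H2A, differed by -0.12 (adjusted p = 0.429) for susceptible against resilient, and Rnf125 and Rnf113a2 by 0.17 each (adjusted p = 0.433 and 0.411). Rnf213, a large ligase known as a moyamoya disease gene in humans, differed by 0.07 (adjusted p = 0.208) for defeated against control. Rnf160, now named Ltn1, the ligase of ribosome quality control, had 16 table entries in the table, with differences from -0.06 to 0.20 and 0.04 (adjusted p = 0.767) for the brightest.

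Of the 19 TRIM genes 9 had higher and 10 lower values in defeated arrays (median -0.01), and 11 of the 19 were not above background. Among the 8 above it, 6 were higher, with a median of 0.07, beside 71.2% higher and a median of 0.07 for all genes above background. Trim13, a ligase anchored in the endoplasmic reticulum, read 10.68, 10.60 and 10.75 in controls, 10.37, 10.48 and 10.47 in susceptible and 10.62, 10.58 and 10.55 in resilient arrays. Susceptible arrays were below all 6 others, and the resilient arrays ran from just under to within the control range. It fell by 0.24 (SE 0.049, limma adjusted p = 0.046) in susceptible against control arrays, and resilient against control was -0.09 (adjusted p = 0.263). The test of susceptible against resilient itself gave -0.15 (limma adjusted p = 0.411), so a difference between the 2 defeated groups was not shown.

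Other TRIM genes of known role in neurons or chromatin did not reach the threshold. Trim9, an axon guidance ligase and the brightest of the class, differed by 0.06 (adjusted p = 0.286) for defeated against control. Its close relative Trim67 differed by 0.15 (adjusted p = 0.098), and Trim68 by 0.19 (adjusted p = 0.136). Trim28, the corepressor KAP1, differed by 0.08 (adjusted p = 0.230). For susceptible against resilient, Trim33, a regulator of SMAD signalling, differed by -0.07 (adjusted p = 0.411), and Trim56, which takes part in antiviral signalling, by 0.11 (adjusted p = 0.411).

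Both UBE3 ligases in the table were higher in defeated arrays. Ube3b read 10.50, 10.38 and 10.37 in controls, 10.67, 10.61 and 10.54 in susceptible and 10.42, 10.50 and 10.52 in resilient arrays. Susceptible arrays were above all others. The difference was 0.19 (SE 0.051, limma adjusted p = 0.067) for susceptible against control and 0.13 (adjusted p = 0.411) for susceptible against resilient. Ube3c, which acts on the proteasome, differed by 0.08 (adjusted p = 0.230) for defeated against control. Other HECT ligases, chosen from known family members with earlier results in view, were higher in 14 of the 14 genes in the table (of 23 listed), with a median of 0.10. Over all genes 58.6% were higher (median 0.04), and 71.2% among genes above background (median 0.07). Of these ligases Herc2, which acts in the DNA damage response, was called, at 0.30 (SE 0.056, adjusted p = 0.045) for defeated and 0.32 (adjusted p = 0.046) for susceptible against control. In these comparisons 1.29% and 2.40% of all genes were called. With the selection allowance the limma adjusted p of Herc2 for defeated against control was 0.157.

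**Figure D2:**
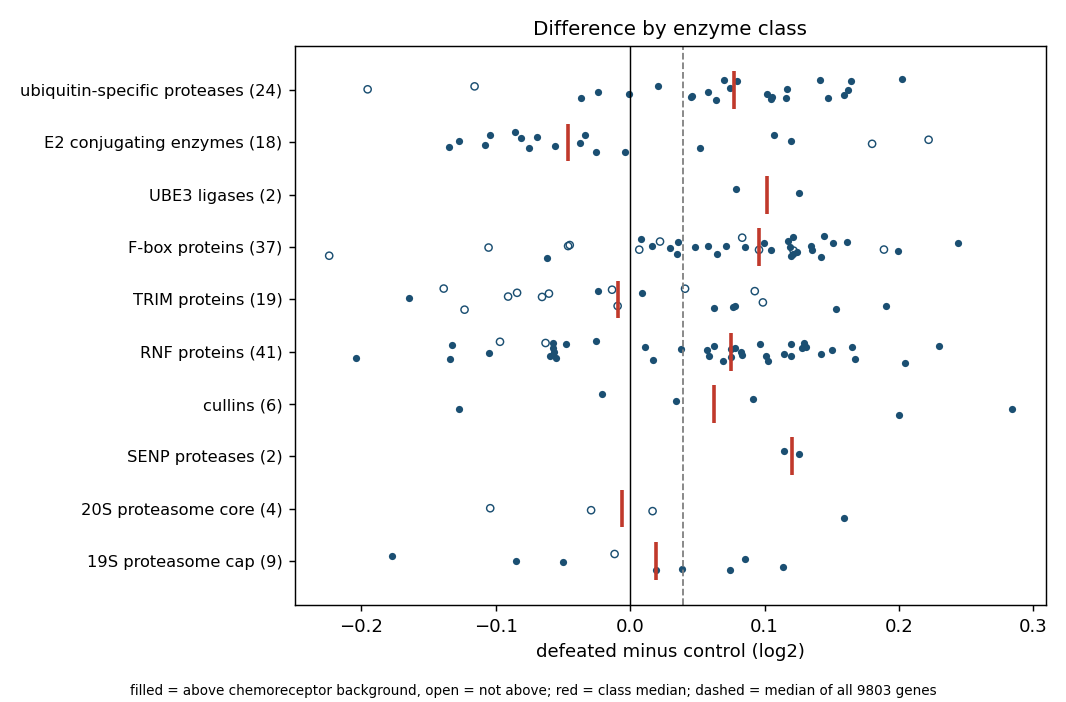
Difference between defeated and control arrays (log2, horizontal axis) for the members of each class other than the SUMO proteins, with filled points above the chemoreceptor background, open points not above it, red bars at class medians and a dashed line at the median of all genes (0.04). The F-box points lie mostly to the right (32 of 37), and 13 of 18 E2 points lie to the left.

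The E2 conjugating enzymes had 5 of 18 genes higher and 13 lower in defeated arrays (median -0.05), and none was called. The mean over the class was not separated by group. Relative to the control mean it was 0.001, 0.018 and -0.018 in susceptible arrays and -0.011, -0.051 and -0.026 in resilient arrays, beside -0.017 to 0.013 in controls. The class is bright, with a median signal of 11.16, and over all genes with a mean signal between 11 and 12 the median difference was 0.04, with 62.8% higher. E2 genes with several table entries were higher in 1 of 10 cases (median -0.07) and those with a single one in 4 of 8 (median 0.04).

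Among single E2 enzymes, Ube2l3, the partner of HECT and RBR ligases, read 12.03 to 12.10 in controls, at the lowest 11.83 in susceptible arrays, and 12.05, 11.82 and 11.93 in resilient arrays. Apart from resilient array 1, which lay in the control range, the defeated arrays were below the controls. Its difference was -0.13 (SE 0.056, limma adjusted p = 0.134), and all 5 of its table entries were lower. Ube2d3, the brightest of the class, differed by -0.07 (adjusted p = 0.158). Ube2o, a large enzyme that acts as both E2 and E3, differed by 0.12 (adjusted p = 0.129), and Ube2g2, which works in degradation from the endoplasmic reticulum, by 0.11 (adjusted p = 0.135). Ube2f, an E2 for the ubiquitin-like NEDD8 that activates cullins, differed by -0.03 (adjusted p = 0.470). For susceptible against resilient, Ube2v2, a cofactor for lysine-63 chains, differed by -0.08 (adjusted p = 0.475) and Ube2q2 by -0.07 (adjusted p = 0.434).

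Ube2l6, the E2 for the interferon-induced modifier ISG15, read 7.42, 7.56 and 7.47 in controls, 7.44, 7.54 and 7.37 in susceptible and 7.21, 7.23 and 7.31 in resilient arrays. The 3 resilient arrays were below all 6 others. Resilient against control was -0.24 (adjusted p = 0.179), and susceptible against resilient was 0.20 (SE 0.057, limma adjusted p = 0.411). Of 42 interferon-stimulated genes listed, 15 were in the table, and 11 of them were lower in defeated arrays (median -0.09). Ube2l6 is itself one of the 15, as are the proteasome subunits Psmb8 and Psmb9. Their mean was 6.41 to 6.50 in controls, 6.37 to 6.38 in susceptible and 6.38 to 6.40 in resilient arrays.

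In the SUMO pathway both SENP proteases were higher in defeated arrays, though neither was called. Sumo2, a SUMO protein that forms chains, had 5 table entries that were all lower, and it differed by -0.07 (SE 0.040, limma adjusted p = 0.179) with groups that overlapped.

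Senp1, which matures SUMO and removes it, read 9.23, 9.29 and 9.31 in controls, 9.37, 9.45 and 9.36 in susceptible and 9.45, 9.41 and 9.39 in resilient arrays. Senp6, which trims SUMO chains, read 11.37, 11.35 and 11.32 in controls, 11.44, 11.45 and 11.48 in susceptible and 11.44, 11.47 and 11.50 in resilient arrays. For both genes all 6 defeated arrays were above the controls, with no separation of susceptible from resilient. Senp1 differed by 0.13 (SE 0.036, limma adjusted p = 0.075) and Senp6 by 0.11 (SE 0.030, adjusted p = 0.069). For susceptible against resilient the differences were -0.02 and -0.01. Rnf4, a ligase that ubiquitinates proteins with SUMO chains, differed by -0.06 (adjusted p = 0.185).

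**Figure D3:**
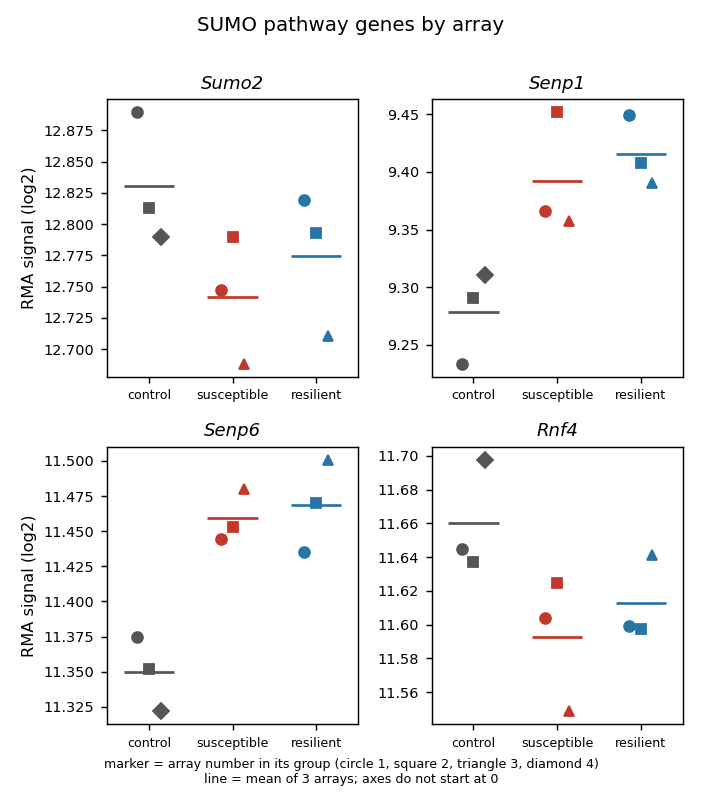
RMA signal (log2, vertical axes that do not start at 0) of 4 genes of the SUMO pathway in each of the 9 arrays, by group, with marker shapes for array numbers and lines at group means. Senp1 and Senp6 are higher in all 6 defeated arrays than in the 3 controls, whereas the groups overlap for Sumo2 and Rnf4.

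Ubiquitin-specific proteases were higher in defeated arrays in 19 of 24 genes, with a median of 0.08, and in 22 of 24 for resilient against control (median 0.07). None was called in any comparison. The class mean relative to controls was 0.073, 0.046 and 0.085 in susceptible and 0.031, 0.073 and 0.094 in resilient arrays, all above the controls (-0.013 to 0.009). The median signal of the class was 10.05. Over all genes with signals between 10 and 11, 73.3% were higher after defeat, with a median difference of 0.07. For resilient against control the median was 0.03 over all genes and 0.06 among genes above background.

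Usp48, a deubiquitinase found mainly in the nucleus, read 9.87, 9.89 and 9.91 in controls, 10.03, 10.06 and 10.13 in susceptible and 10.00, 10.12 and 10.20 in resilient arrays. The controls were close together and below all defeated arrays. The difference was 0.20 (SE 0.045, limma adjusted p = 0.058). Usp47, known for base excision repair through DNA polymerase beta, differed by 0.16 (SE 0.049, adjusted p = 0.080), also with no overlap.

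Other proteases were named for their roles in neurons or for their differences. Usp14, which sits on the proteasome and trims chains there, differed by -0.02 (adjusted p = 0.521), and Usp46, known in mice for a mutation that alters immobility under stress, by 0.02 (adjusted p = 0.632). Usp1, which deubiquitinates FANCD2, differed by -0.15 (adjusted p = 0.411) for susceptible against resilient. In the same comparison Usp29, from an imprinted locus, differed by -0.25 (SE 0.116, adjusted p = 0.411), and its groups overlapped. Usp42 and Usp19 differed there by 0.11 (adjusted p = 0.411) and 0.07 (adjusted p = 0.471).

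**Figure D4:**
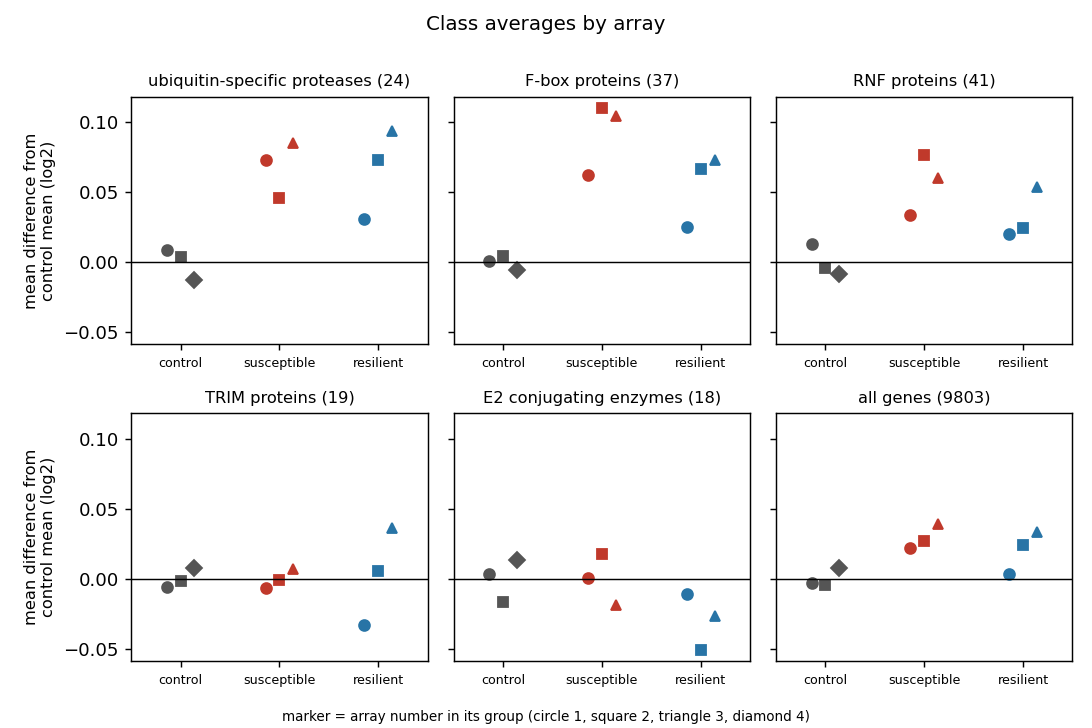
Mean difference from the control mean (log2, vertical axis) over 5 classes and over all genes in each of the 9 arrays, by group, with marker shapes for array numbers. F-box, RNF and protease means lie above the controls in all 6 defeated arrays, with resilient array 1 the lowest of them in each, while TRIM and E2 means overlap the controls.

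The proteasome genes did not move one way. Psma5, a subunit of the outer ring of the 20S core, read 9.63, 9.58 and 9.55 in controls, 9.77, 9.92 and 9.69 in susceptible and 9.64, 9.69 and 9.76 in resilient arrays. Defeated arrays were above the controls, by a narrow margin in resilient array 1. The difference was 0.16 (SE 0.053, limma adjusted p = 0.097). The immunoproteasome subunits Psmb8 and Psmb9 and the testis subunit Psma8 were not above background, at -0.10 (adjusted p = 0.155), -0.03 (adjusted p = 0.548) and 0.02 (adjusted p = 0.696).

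In the 19S cap, Psmd14, the deubiquitinase of the lid, read 12.03, 11.96 and 11.98 in controls, 11.86, 11.86 and 11.83 in susceptible and 11.94, 11.99 and 11.94 in resilient arrays. Susceptible arrays were below all others. Susceptible against control was -0.14 (SE 0.035, limma adjusted p = 0.063) and susceptible against resilient -0.11 (adjusted p = 0.411). Psmd8, another lid subunit, differed by -0.18 (SE 0.056, adjusted p = 0.089) for defeated against control, and the ATPase subunits Psmc3 and Psmc4 by 0.11 (adjusted p = 0.114) and 0.09 (adjusted p = 0.150). Psmd2, a base subunit and the brightest of the cap genes, differed by 0.04 (adjusted p = 0.375). For susceptible against resilient the lid subunit Psmd11 differed by -0.09 (adjusted p = 0.432) and the ATPase Psmc2 by 0.08 (adjusted p = 0.418). The 9 cap genes had a median of 0.02 for defeated against control.

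**Figure D5:**
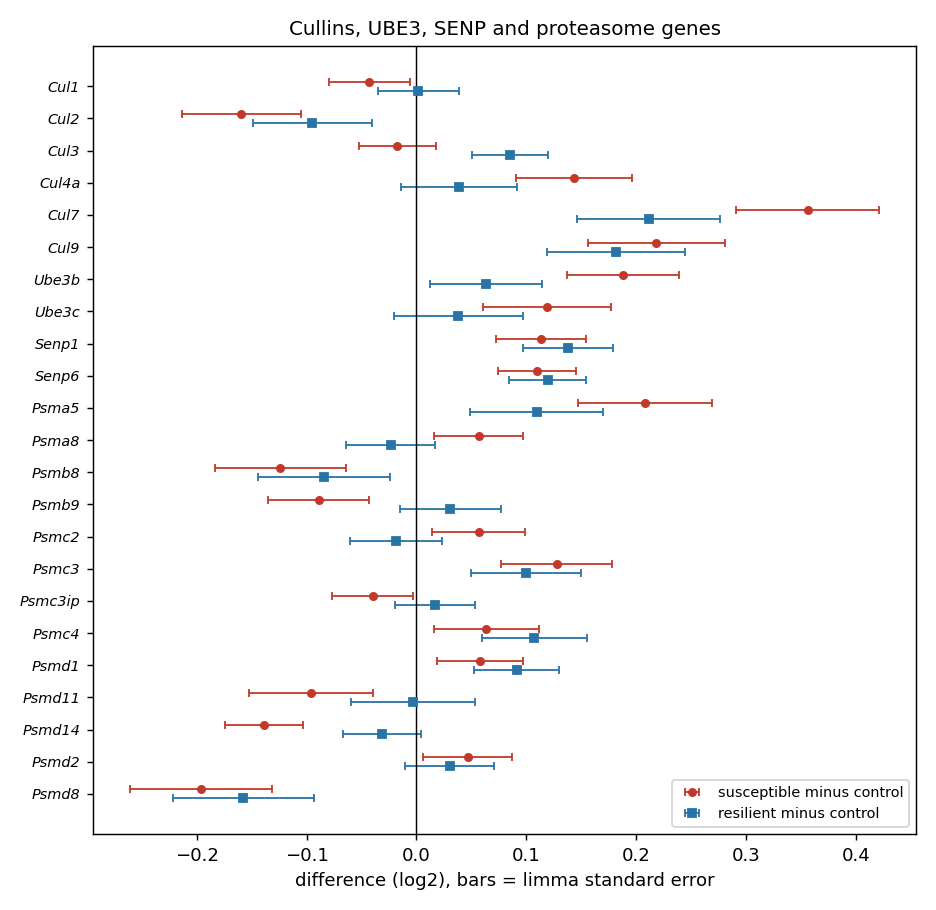
Difference from control (log2, horizontal axis, bars are limma standard errors) of the cullin, UBE3, SENP and proteasome genes in susceptible (red circles) and resilient (blue squares) arrays, which share the same controls. Cul7 lies farthest to the right in both groups, and Cul3 lies on opposite sides (-0.02 and 0.09).

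Without regard to a test, all defeated arrays lay on one side of the controls for 28 members (21 above and 7 below), which is 17.1% of members, beside 17.4% of all genes (10.9% above and 6.45% below). In susceptible against control the count was 88 (62 above and 26 below), or 53.7% beside 40.2% of all genes (25.4% above and 14.8% below). In resilient against control it was 40 (26 above and 14 below), or 24.4% beside 28.1% (16.7% above and 11.4% below). Susceptible and resilient arrays did not overlap for 24 members (12 in each direction), or 14.6% beside 15.0% (8.35% above and 6.65% below). These shares were not restricted to genes above background, which made up 81.1% of members and 58.5% of all genes. The part of signal level in the larger share of members for susceptible against control was not tested. In the direction of their differences the members were 65.9% higher in defeated arrays (108 of 164, median 0.06), against 58.6% of all genes. Among genes above background the shares were 72.2% of members and 71.2% of all genes, with medians of 0.07 for both.

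The remaining genes of the pathway were taken from lists of E1 enzymes, SUMO ligases, HECT and RING ligases, cullin adaptors, anaphase-promoting complex, deubiquitinases and proteasome factors outside the symbol families, 313 genes of which 125 were in the table. In defeated against control arrays 97 had higher and 28 lower values (median difference 0.09), and 2 were called higher and 0 lower. Over all genes 58.6% were higher and 1.29% were called, and the lists are bright (median signal 10.26): of all genes with signals between 10 and 11, 73.3% were higher, with a median of 0.07. Besides Herc2, these were Phrf1, a RING and PHD finger protein, at 0.28 (SE 0.053, limma adjusted p = 0.045). In susceptible against control arrays Traf3, a signalling adaptor with a RING domain, was called as well, at 0.25 (adjusted p = 0.046), with Phrf1 at 0.30, which made 3 of 125 beside 2.40% of all genes. None was called in the other comparisons, and none was called in any of the 4 with the selection allowance.

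By list, 35 of 41 other RING ligases were higher (median 0.09), as were 30 of 40 cullin adaptors and regulators (median 0.08), 9 of 13 other deubiquitinases (median 0.13), 5 of 7 SUMO ligases and SUMO-targeted proteins (median 0.08) and 2 of 3 anaphase-promoting complex genes. The 3 E1 genes had a median of -0.06, with Uba1, the main ubiquitin E1, at 0.05 (adjusted p = 0.363) and Uba3, of the NEDD8 E1, at -0.09 (adjusted p = 0.188). The 3 other proteasome factors had a median of -0.05. Birc3, an inhibitor of apoptosis with a RING domain, was the lowest of the RING genes at -0.22 (adjusted p = 0.058).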

How the data were processed

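The 9 arrays carried RNA from Ago2 immunoprecipitates of amygdala, in 3 groups of 3 taken from the sample titles. The deposited values are log2 signals made by the authors with RMA and, per the submitters' processing notes, Partek. The sources used here do not give the array version, the annotation build or any software version. The authors' deposited gene table (11772 rows, 9803 symbols) was joined to the value matrix by row identifier. Its genes had been selected: a one-way test over the 3 groups, recomputed here from the matrix, gave at most 0.287 for the best row of any symbol. A further 9 value columns matched no sample label and were not used. RMA's summary gave exact ties between arrays for 68 members. RMA scales arrays to one distribution, so a shift common to all genes would be lost.

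Per symbol the row with the highest mean over 9 arrays was kept, and 28 members had several rows. Symbols were current in the RefSeq table for 161 members and replaced for 3 (Rnf160 is Ltn1, Ube2d2 is Ube2d2a, Usp17l5 is Usp17lc). limma 3.58.1 (R 4.3.3) fitted a mean per group to all 9 arrays by lmFit, with contrasts and moderated variances (eBayes, prior df 3.40), two-sided, with Benjamini-Hochberg adjustment over 9803 symbols and a threshold of 0.05. Defeated is the mean of the susceptible and resilient group means. Classes are described by counts and medians, with no test. The fit was tested on simulated data. The number of arrays, 3 per group, limits the precision.

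The text names the called members, those with the largest differences in each class above background in defeated against control and in susceptible against resilient, all members of the small classes, the brightest of each class, and fixed genes of known role, apart from a few genes, and the SUMO class median, that are not reported here. Rnf40, Fbxl16 and the rows of single genes were added for their values or as partners of a named gene. Members, lists and tests were chosen with earlier results of these data known. Alternatives were 2 scalings, a filter on low values, other handling of rows, the selection allowance, eBayes with trend and robust estimation, array weights, only the groups compared, choroid plexus content, a replicate block, and leaving out each array. Deviations of same-numbered arrays correlated at -0.08 to 0.25, beside -0.28 to 0.35 for arrays of other numbers, and numbers were not taken as pairs. Control array 4 has no same-numbered partner. Its deviations correlated at 0.35 with susceptible array 3 and at 0.23 with resilient array 3. Whether arrays were handled in batches by their order was not tested.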

Additional observations from a re-analysis of the deposited data

Results flagged for a closer look

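Fbxl16, an F-box protein and the brightest of its class, was the member whose susceptible arrays all moved one way and whose resilient arrays all moved the other way from the controls. It read 12.65, 12.65 and 12.66 in controls, 12.66, 12.70 and 12.70 in susceptible and 12.64, 12.64 and 12.61 in resilient arrays. Susceptible array 1 and control array 4 were apart by less than the last printed digit. The difference for susceptible against resilient was 0.0561 (SE 0.032), and its test gave a limma adjusted p of 0.421.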

How the results depend on the processing

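For defeated against control, where 2 members were called, the count was 0 with arrays shifted to one median, after quantile normalisation, with all rows as separate features, with the selection allowance, with the choroid plexus covariate and under the replicate block. In that block control array 4 stands alone, so the comparisons with control rest there on control arrays 1 and 2. The count was 5 with the low-value filter and with trend and robust estimation, and 35 with array weights. For susceptible against control, where 4 were called, it was 0 after quantile normalisation, with the allowance, with only the groups compared, with choroid plexus content and with the replicate block, 1 with all rows and 54 with array weights. Leaving out single arrays gave 0 to 16 and 0 to 24 members. In the other comparisons it was 0 throughout. The array weights ran up to 2.89 for susceptible array 2 and were 0.52 for susceptible array 1. The cause of these changes was not tested, and the shares of all genes called in the same fits are not given here. The counts therefore describe the dependence on processing and are not a result about the members. The 4 called genes kept their direction throughout: Cul7 for defeated against control ranged from 0.20 to 0.35 and was called under 6 of 19 alternatives, Fbxo4 for the same comparison ranged from -0.27 to -0.19 (5 of 18), Fbxw4 for susceptible against control from 0.14, after quantile normalisation, to 0.26 (6 of 20), and Trim13 for susceptible against control ranged from -0.29 to -0.20 and was called under 7 of 20.

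Class medians for defeated against control moved with scaling. With arrays shifted to one median they were 0.0337 for proteases, -0.0898 for E2 enzymes, 0.0524 for F-box, -0.0528 for TRIM, 0.0314 for RNF, 0.0190 for cullins, 0.0768 for SENP, -0.0497 for the 20S core and -0.0246 for the 19S cap, the last with its sign turned, while the median of all genes was -0.00415. After quantile normalisation they were 0.0264 for proteases, 0.0413 for F-box, 0.0217 for RNF, 0.0304 for cullins and 0.0727 for SENP. The low-value filter gave 0.0694 for TRIM and 0.159 for the 20S core, where only Psma5 remained. Both had the sign turned because the filter leaves out dim genes. With the choroid plexus covariate the medians were 0.0588 for F-box and 0.0514 for RNF, and under the replicate block 0.0635 for F-box. Leaving out single arrays gave 0.0736 to 0.114 for F-box and -0.0589 to -0.0255 for E2 enzymes, the latter without control array 4. The sign turned in some of these fits for TRIM (-0.0226 to 0.00558, above 0 without control array 1 or susceptible array 2), the 20S core (-0.0157 to 0.00796, above 0 without control array 2, susceptible array 2 or resilient array 3) and the 19S cap (-0.000603 to 0.0354, below 0 without susceptible array 2).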
